A study of Homo sapiens with 12 samples.

Results

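Estrogen receptor α is a hormone-activated transcription factor, and the genes it switches on have been worked out mostly in breast cancer cells. The genes described here are 10 of the best known of those targets: GREB1, TFF1, TFF3, CTSD, XBP1, CCND1, CXCL12, SLC22A5, PDZK1 and SIAH2. They were measured in U2OS-ER-alpha cells, human bone osteosarcoma cells that carry estrogen receptor α. Members were the probe sets annotated with exactly 1 of these symbols, and 9 of the 10 genes had such a probe set, of 18417 symbols in all. PDZK1, which encodes a scaffold protein for membrane transporters, is annotated only together with its pseudogene PDZK1P1 and was not analysed here. Each measured member had a single probe set.

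The 12 Affymetrix Human Gene 1.0 ST arrays form 4 groups of 3 biological replicates. Cells labelled NT_V received a non-targeting siRNA pool and ethanol vehicle, and cells labelled NT_E the same pool and 17-B-estradiol. Cells labelled siSRC-1_V and siSRC-1_E received a pool against NCOA1, the gene of the coactivator SRC-1, and then vehicle or estradiol. All 4 groups were transfected with siRNA at 50 nM, kept in charcoal-stripped serum and treated for 3 h, so each value is an early response. Whether the line is 1 clone is not given in the sources used here. P-values measure the spread among the replicates as labelled.

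The deposited values are log2 expression, where a difference of 1 is a doubling. On the checked labels, NCOA1 had means of 8.79 log2 in NT_V, 9.08 in NT_E, 5.86 in siSRC-1_V and 6.86 in siSRC-1_E, and ESR1, the receptor gene, had means between 12.03 and 12.16 log2 in the 4 groups. All 10 osteoblast and mesenchymal markers lay above the lower quartile of every array, which was 5.17 to 5.24 log2. Among them were RUNX2 (7.24 ± 0.16 log2 in NT_V, SD, n = 3), SP7 (7.22 ± 0.11) and COL1A1 (9.20 ± 0.09). All 10 luminal breast epithelial markers also lay above it, among them the pioneer factor gene FOXA1 (7.16 ± 0.07 log2 in NT_V, SD, n = 3) and GATA3 (7.28 ± 0.10), a luminal regulator. A level on an array above that quartile does not by itself show expression. The mean over the 10 osteoblast markers was 9.26 to 9.35 log2 in the arrays of NT_V, 9.19 to 9.25 in NT_E, 9.29 to 9.33 in siSRC-1_V and 9.20 to 9.25 in siSRC-1_E. The mean over the luminal markers was 7.54 to 7.63, 7.57 to 7.61, 7.55 to 7.67 and 7.59 to 7.63. Highest in NT_V were SPARC (12.58 log2) and VIM (12.44) of the first list and KRT18 (11.93) and KRT8 (11.14) of the second. RUNX2 and SP7 lay near FOXA1 and GATA3, so these means do not speak for every marker. Of the osteoblast markers limma called COL1A2 and TWIST1 lower with estradiol under SRC-1 siRNA (-0.22 and -0.23 log2), kept in 2 and 8 of 12 fits that left out 1 array and in neither case with the covariate. With SRC-1 siRNA ALPL was lower under vehicle and estradiol (-0.23 and -0.43 log2, kept in 5 and 12 such fits) and CDH2 higher under estradiol (0.25, kept in 11). The CDH2 call was lost with the covariate (limma adjusted p = 0.162) and with the compared arrays alone in the fit (0.08). With those arrays alone ALPL lost its vehicle call (limma adjusted p = 0.181). The COL1A2 call was also lost with quantile normalization and with centring on the median (limma adjusted p = 0.0505 and 0.053). Of the luminal markers 0 were called in these 4 comparisons, with 4, 1, 0 and 3 at an unadjusted limma p under 0.05 for estradiol with non-targeting and SRC-1 siRNA and for SRC-1 siRNA under vehicle and estradiol. The part of these markers in the results was not tested. The 4203 probe sets taken as controls, by inference from their numbering, also moved with estradiol. Their mean deviation was -0.159 to -0.024 log2 in the vehicle arrays and -0.003 to 0.178 in the estradiol arrays. What moved them was not tested. The part of this mean in single results was examined by adding it as a covariate. The covariate also takes up estradiol effects because it separates the treatments.

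In breast cancer cells the receptor reaches its targets by binding palindromic estrogen response elements, often far from the gene, or by tethering to other factors such as SP1 at GC boxes. It then recruits coactivators of the p160 family, to which SRC-1 belongs. The members span many cell functions. GREB1 is a chromatin-bound cofactor of the receptor, TFF1 and TFF3 are secreted trefoil peptides of mucosal surfaces, and CXCL12 is a chemokine. CTSD is a lysosomal protease, XBP1 a transcription factor of the unfolded protein response, CCND1 encodes cyclin D1, SLC22A5 is a carnitine transporter and SIAH2 a ubiquitin ligase.

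Sequence upstream of the transcription start is shown for SLC22A5 and CTSD, which were called higher with estradiol in at least 1 comparison, and for XBP1 and SIAH2, which were called in none. RefSeq start regions in build GRCh38.p14 were matched for 6 of the 10 members. The 250 bases before the start are written 5′ to 3′ on the gene's strand. Capitals mark half-sites of the estrogen response element (GGTCA on either strand) and GC boxes (GGGCGG on either strand).
SLC22A5 (chr5:132369460-132369709, plus strand): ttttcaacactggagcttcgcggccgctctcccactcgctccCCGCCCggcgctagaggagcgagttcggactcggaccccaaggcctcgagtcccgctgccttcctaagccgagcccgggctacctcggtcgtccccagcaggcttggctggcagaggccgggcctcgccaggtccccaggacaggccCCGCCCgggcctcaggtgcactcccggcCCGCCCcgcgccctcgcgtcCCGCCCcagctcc
CTSD (chr11:1763928-1764177, minus strand): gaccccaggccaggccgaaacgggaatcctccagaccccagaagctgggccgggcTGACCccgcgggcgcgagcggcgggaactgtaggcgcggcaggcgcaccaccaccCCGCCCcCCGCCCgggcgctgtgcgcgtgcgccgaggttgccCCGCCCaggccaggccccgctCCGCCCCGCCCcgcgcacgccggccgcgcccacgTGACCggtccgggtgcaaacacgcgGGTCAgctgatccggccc
XBP1, the start farther upstream (chr22:28800570-28800819, minus strand): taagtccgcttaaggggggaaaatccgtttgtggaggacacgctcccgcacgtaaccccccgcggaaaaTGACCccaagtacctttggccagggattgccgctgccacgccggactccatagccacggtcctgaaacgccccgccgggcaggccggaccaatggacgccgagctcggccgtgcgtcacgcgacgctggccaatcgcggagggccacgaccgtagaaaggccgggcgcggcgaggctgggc
SIAH2 (chr3:150763170-150763419, minus strand): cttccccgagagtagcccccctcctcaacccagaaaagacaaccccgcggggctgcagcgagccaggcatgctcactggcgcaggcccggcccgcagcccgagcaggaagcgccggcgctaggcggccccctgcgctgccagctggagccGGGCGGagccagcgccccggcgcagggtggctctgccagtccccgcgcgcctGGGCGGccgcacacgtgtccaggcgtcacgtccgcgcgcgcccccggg

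The full element GGTCANNNTGACC was in none of the 8 upstream windows of the 6 matched members and in 0.0399% of all 35116 windows of that length. The half-site, which also forms each end of the full element, was found in 32.6% of all windows and the GC box in 42.6%. The CTSD window held 3 half-sites and 5 GC boxes, of which a neighbouring pair shares 1 base, and none of the half-sites overlapped a GC box. Its best match to the full element had 8 of the 10 fixed letters, a match that 8.49% of all windows reach. The SLC22A5 window held 0 half-sites and 4 GC boxes, and SIAH2 had 0 half-sites and 2 GC boxes. Each XBP1 window held 1 half-site, with 0 GC boxes at the start farther upstream and 3 at the other. CXCL12 had 1 half-site and 3 GC boxes, so these letters were present in windows of members that were called and of members that were not. A match is only a description of letters, and a missing match says nothing of elements outside these windows.

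Which of the targets respond in bone cells was asked with the estradiol effect under each siRNA. GREB1 and SLC22A5 rose with both siRNAs, by 1.28-fold to 1.47-fold. CTSD rose 1.14-fold with SRC-1 siRNA, a call that most fits leaving out 1 array lost. TFF1, TFF3, XBP1, CXCL12, SIAH2 and CCND1 were not called with either siRNA. The call needed a limma p under 0.01 together with an adjusted p (Benjamini-Hochberg, over all 29094 tested probe sets) under 0.05. With non-targeting siRNA 2 of 9 measured members were called higher, where 1.85% of all probe sets were, and 0 were called lower, where 0.873% were. With SRC-1 siRNA 3 of 9 were called higher, where 4.49% of all probe sets were, and 0 lower, where 2.39% were; 3 of 9 members had an unadjusted p under 0.05 there, and 5 of 9 with non-targeting siRNA. The median member difference was 0.04 and 0.02 log2 in the 2 comparisons, beside -0.01 and -0.02 over all probe sets. Since members were chosen with earlier results of these data known, the shares set beside all probe sets are a description only. In bulk RNA, fewer responding cells and less RNA per cell cannot be told apart.

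GREB1 (probe set 8040292) read 7.57, 7.56 and 7.55 log2 in NT_V and 7.95, 7.94 and 7.99 in NT_E. With SRC-1 siRNA it read 7.51, 7.34 and 7.63 under vehicle and 7.94, 8.01 and 7.86 under estradiol. Every estradiol array lay above every vehicle array, and the vehicle arrays with SRC-1 siRNA were the most spread. The rise was 0.40 ± 0.066 log2 (SE, 1.32-fold, limma adjusted p = 0.00626) with non-targeting siRNA and 0.45 ± 0.066 (1.36-fold, limma adjusted p = 0.00213) with SRC-1 siRNA. With the control probe sets as a covariate both rises were 0.36 log2 and neither was called (limma adjusted p = 0.14 and 0.503). The genes whose 12 array values, centred on their own mean, lay nearest to GREB1 were ICOSLG, a T-cell costimulatory ligand, with a root mean square difference of 0.052 log2, and AKAP1, a mitochondrial anchor of protein kinase A, with 0.058. The estradiol differences were 0.38 and 0.40 log2 for ICOSLG and 0.34 and 0.41 for AKAP1.

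SLC22A5 (probe set 8107920) read 8.14, 8.14 and 8.08 log2 in NT_V and 8.49, 8.38 and 8.56 in NT_E. After SRC-1 siRNA the values were 8.12, 8.11 and 8.07 under vehicle and 8.69, 8.66 and 8.61 under estradiol. The 6 vehicle arrays lay within a narrow band, and the estradiol arrays lay above them, highest with SRC-1 siRNA. The rise was 0.36 ± 0.05 log2 (SE, 1.28-fold, limma adjusted p = 0.00185) with non-targeting siRNA and 0.55 ± 0.05 (1.47-fold, limma adjusted p = 6.9e-05) with SRC-1 siRNA. With the covariate the values stayed at 0.36 and 0.55 log2, the first called (limma adjusted p = 0.0463) and the second not (0.124). Nearest to it over the 12 arrays were SLC25A24, a mitochondrial carrier, at 0.064 log2, and MGAT5B, a glycosyltransferase, at 0.071. The related transporter gene SLC22A4, also of the organic cation and carnitine family, differed by -0.02 log2 (95% interval -0.21 to 0.16) with non-targeting siRNA and -0.03 (-0.21 to 0.15) with SRC-1 siRNA and was not called.

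CTSD (probe set 7945666) read 11.25, 11.35 and 11.23 log2 in NT_V and 11.45, 11.40 and 11.44 in NT_E. With SRC-1 siRNA the values were 11.20 on all 3 vehicle arrays and 11.45, 11.39 and 11.31 under estradiol. The estradiol arrays lay above the vehicle arrays of the same siRNA in both cases, by a small margin. The difference was 0.15 ± 0.048 log2 (SE, limma adjusted p = 0.162) with non-targeting siRNA, not called, and 0.18 ± 0.048 (limma adjusted p = 0.0451) with SRC-1 siRNA, called. That call held in 2 of the 12 fits that left out 1 array, those without NT_V replicate 2 and without siSRC-1_E replicate 3. In the other fits of this kind the limma adjusted p was 0.0541 to 0.154 and the difference 0.15 log2 or more. With the compared arrays alone in the fit the call was lost at 0.18 log2 (limma adjusted p = 0.126), with the replicate block also (0.051), and with the covariate the difference was 0.30 log2 and not called (0.397). The genes nearest to CTSD were PPM1M, a protein phosphatase, at 0.037 log2, and BCL2L13, a mitochondrial BCL2 family protein, at 0.04. Of the other lysosomal cathepsins, CTSB differed by -0.17 and -0.19 log2 with estradiol and CTSL by 0.17 and 0.11, and neither was called. With a trended and robust variance CTSB was called lower with both siRNAs (limma adjusted p = 0.0246 and 0.00882). Without the lowest 40% of probe sets it was called lower with SRC-1 siRNA (limma adjusted p = 0.0288).

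CCND1 (probe set 7942123) read 11.22, 11.29 and 11.26 log2 in NT_V and 11.35, 11.40 and 11.39 in NT_E. With SRC-1 siRNA it read 11.15, 11.21 and 11.20 under vehicle and 11.26, 11.28 and 11.26 under estradiol. The estradiol arrays lay above the vehicle arrays of the same siRNA, but NT_V and siSRC-1_E overlapped. The difference was 0.12 log2 (95% interval 0.04 to 0.21, limma adjusted p = 0.165) and 0.08 (-0.01 to 0.16, limma adjusted p = 0.262), and neither was called. A trended and robust variance in limma gave calls for CCND1 and CTSD with non-targeting siRNA, at the same 0.12 and 0.15 log2 (adjusted p = 0.0225 and 0.0277). GREB1, SLC22A5, CTSD and CCND1 were the 4 of 9 members whose treatments did not overlap with non-targeting siRNA, as for 21% of all probe sets, and the 4 of 9 with SRC-1 siRNA, as for 25.8%. The partners of cyclin D1 were not called: the kinase gene CDK4 differed by 0.04 and -0.02 log2, CDK6 by -0.07 and -0.11, and the related cyclin genes CCND2 by 0.01 and -0.05 and CCND3 by 0.00 and -0.04.

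**Figure D1:**
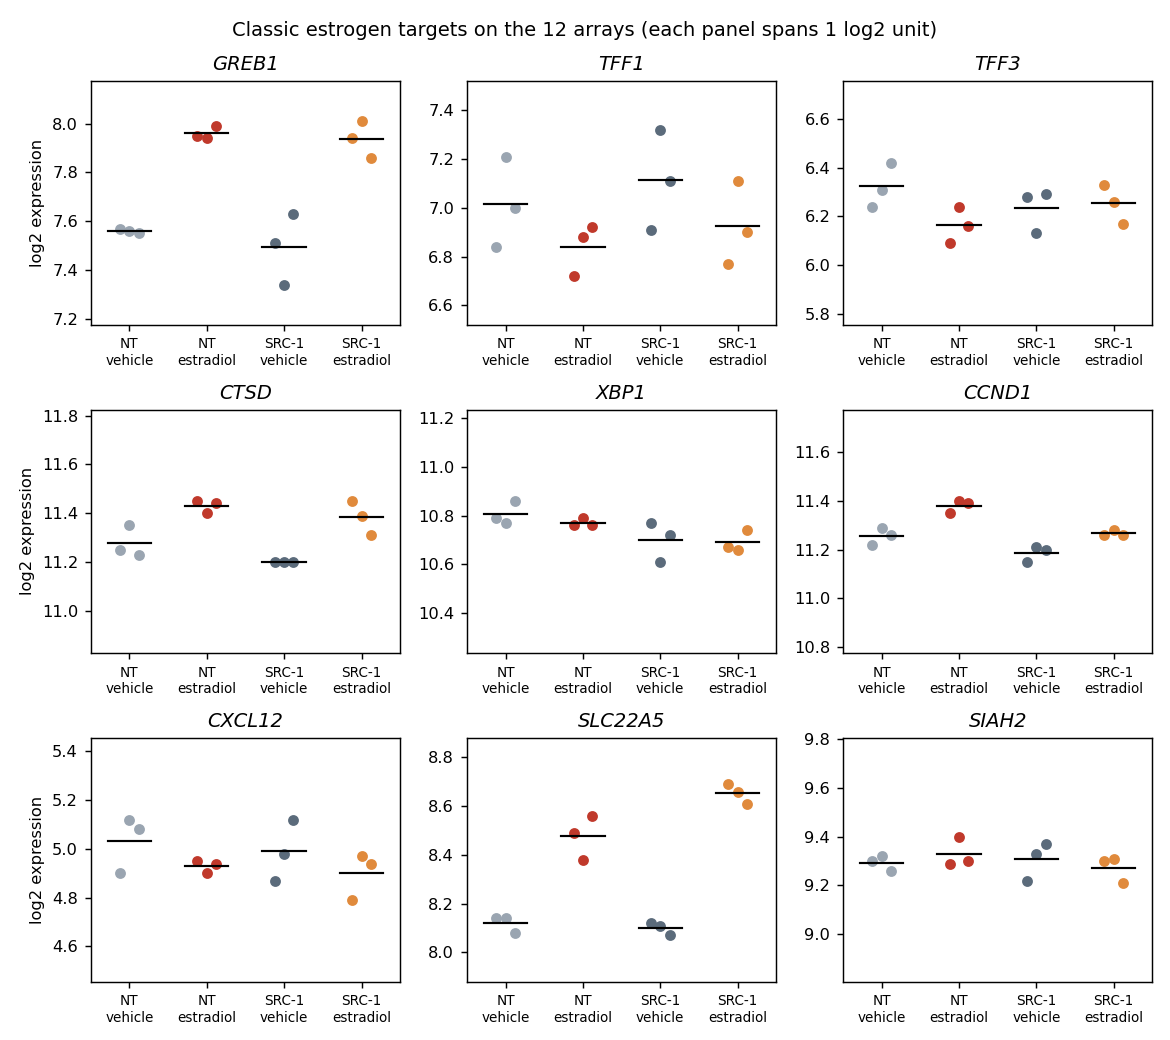
Log2 expression (y axis, 1 log2 unit per panel) of the 9 measured targets on the 12 arrays, by siRNA and treatment (x axis); NT is the non-targeting and SRC-1 the SRC-1 siRNA, points are arrays and bars are means of 3. GREB1 and SLC22A5 separate by treatment with both siRNAs, from 7.56 to 7.96 and from 8.12 to 8.48 log2 with non-targeting siRNA.

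TFF1 (probe set 8070579), the textbook estrogen target of MCF-7 cells, read 6.84, 7.21 and 7.0 log2 in NT_V and 6.72, 6.88 and 6.92 in NT_E. In SRC-1 siRNA cells it read 6.91, 7.32 and 7.11 under vehicle and 6.77, 7.11 and 6.90 under estradiol. Treatments overlapped with both siRNAs, and replicate 2 was the highest in 3 of the 4 groups. The differences of -0.18 log2 (95% interval -0.44 to 0.09) and -0.19 (-0.45 to 0.08) were not called, and their intervals end at a rise of 0.09 and 0.08 log2. These intervals take no account of replicate number. Within each siRNA every estradiol array read lower than the vehicle array of the same number. A replicate block left both differences unchanged, with an SE of 0.058 log2 in place of 0.122. They were not called there either (limma adjusted p = 0.191 and 0.0858). With the covariate the values were 0.08 ± 0.135 and 0.35 ± 0.219 log2 (SE), also not called, so their sign is not fixed. TFF3 (probe set 8070567) read 6.24, 6.31 and 6.42 log2 in NT_V and 6.09, 6.24 and 6.16 in NT_E, which overlap. SRC-1 siRNA cells gave 6.13 to 6.29 log2 under vehicle and 6.17 to 6.33 under estradiol, which also overlap. Every TFF3 value lay above the lower quartile of its array but below the median, which was 6.85 to 6.92 log2. Signal over background was not measured, so a small change in TFF3 could have gone unseen. The TFF3 difference was -0.16 log2 (-0.31 to -0.01, limma adjusted p = 0.342) with non-targeting and 0.02 (-0.13 to 0.17) with SRC-1 siRNA. The other trefoil gene, TFF2, differed by -0.16 and -0.10 log2 and was not called.

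CXCL12 (probe set 7933194) read 4.90 to 5.12 log2 in NT_V, 4.90 to 4.95 in NT_E, 4.87 to 5.12 in siSRC-1_V and 4.79 to 4.97 in siSRC-1_E. All 12 values lay below the lower quartile of their array, so no signal above background is shown and a change could have gone unseen. Estradiol differences were -0.10 log2 (95% interval -0.27 to 0.07) and -0.09 (-0.26 to 0.08). Of the receptors of this chemokine, CXCR4 was also below the quartile on all 3 arrays of every group. Its differences were -0.08 and -0.06 log2, and a change could have gone unseen there too. The scavenging receptor gene CXCR7 (now ACKR3) had means of 4.80, 4.99, 4.78 and 5.25 log2 in NT_V, NT_E, siSRC-1_V and siSRC-1_E. It lay below the quartile on all 3 arrays of NT_V and of siSRC-1_V, on 2 of NT_E and on 1 of siSRC-1_E. With SRC-1 siRNA it was called higher with estradiol (limma adjusted p = 0.0224), at 0.47 log2 between the deposited values, a size with no baseline above that quartile. Its 0.19 with non-targeting siRNA was not called. The CXCR7 call was lost without siSRC-1_V replicate 2 or 3 (0.0754 and 0.086) and without siSRC-1_E replicate 1 or 3 (0.0829 and 0.0824), as limma adjusted p. With the covariate it was 0.02 log2.

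XBP1 (probe set 8075182) read 10.79, 10.77 and 10.86 log2 in NT_V and 10.76, 10.79 and 10.76 in NT_E. With SRC-1 siRNA it read 10.77, 10.61 and 10.72 under vehicle and 10.67, 10.66 and 10.74 under estradiol. Treatments overlapped with both siRNAs, and the differences were -0.04 log2 (95% interval -0.15 to 0.08) and -0.01 (-0.12 to 0.10). Genes of the unfolded protein response that XBP1 belongs to were not called with estradiol either. The chaperone gene HSPA5 differed by 0.01 and -0.01 log2, ERN1, whose product splices XBP1 mRNA, by 0.05 and -0.01, and the cochaperone gene DNAJB9, an XBP1 target, by 0.01 and -0.08.

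SIAH2 (probe set 8091485) read 9.30, 9.32 and 9.26 log2 in NT_V and 9.29, 9.40 and 9.30 in NT_E. With SRC-1 siRNA it read 9.22, 9.33 and 9.37 under vehicle and 9.30, 9.31 and 9.21 under estradiol. The 4 groups overlapped, with differences of 0.04 log2 (95% interval -0.08 to 0.15) and -0.03 (-0.15 to 0.08). Its relative SIAH1 differed by 0.04 and -0.07 log2 and was not called. Over the list of 20 partners and relatives of the members, limma called 0 with non-targeting siRNA (4 at an unadjusted p under 0.05), where 2.73% of all probe sets were called, and with SRC-1 siRNA 1, CXCR7, where 6.88% were. GREB1L, the relative of GREB1, differed by 0.03 and 0.17 log2, and neither was called.

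**Figure D2:**
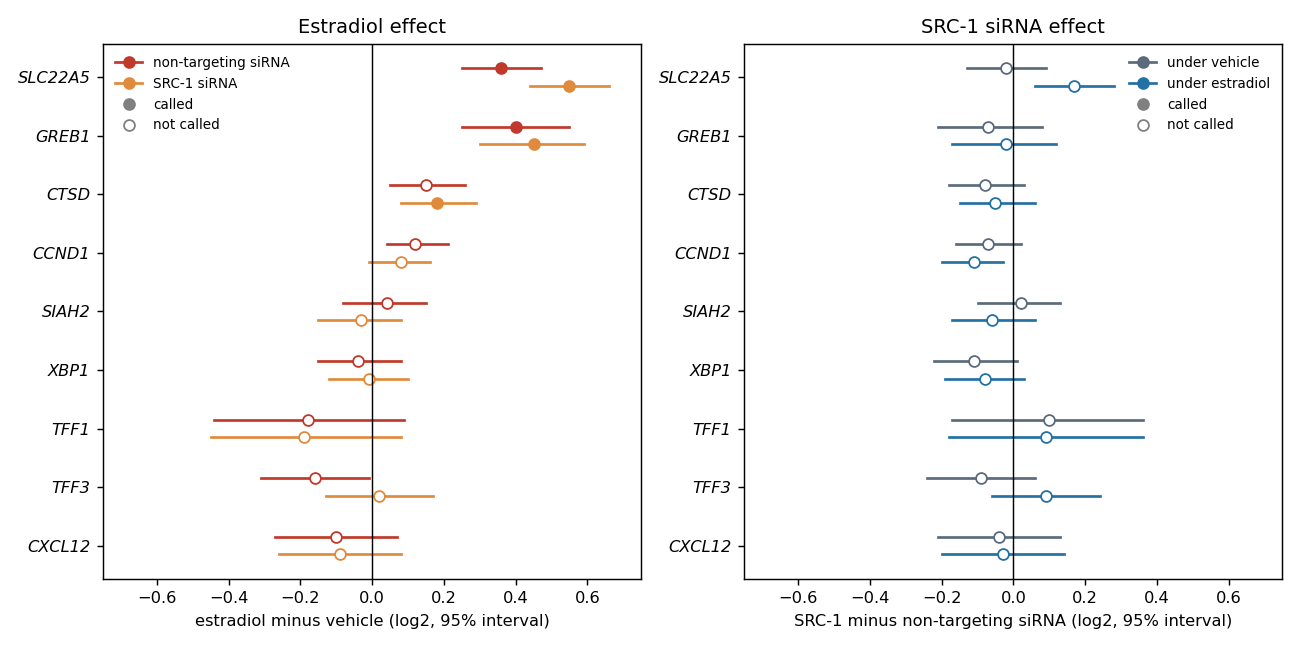
Estradiol minus vehicle (left) and SRC-1 minus non-targeting siRNA (right) for the 9 measured targets, as log2 differences (x axis) with 95% intervals; filled points were called by limma. On the left GREB1 and SLC22A5 are called for both siRNAs and CTSD for SRC-1 siRNA; on the right 0 are called.

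Whether SRC-1 depletion alters these genes was asked with and without hormone. Under vehicle limma called 0 of 9 members (0 at an unadjusted p under 0.05), against 1.21% over all probe sets (0.265% higher and 0.945% lower). Under estradiol it called 0 of 9 (2 at an unadjusted p under 0.05), where 1.8% were (0.732% higher and 1.07% lower), and those 2 went in opposite directions. SLC22A5 was 0.17 log2 higher with SRC-1 siRNA under estradiol (95% interval 0.06 to 0.28, limma adjusted p = 0.118), with all 3 siSRC-1_E arrays above all 3 NT_E arrays. CCND1 was 0.11 lower there (log2 difference -0.11, -0.20 to -0.03, limma adjusted p = 0.181), also without overlap, and was called with a trended and robust variance (limma adjusted p = 0.0364). Groups did not overlap for 2 of 9 members under vehicle, CTSD and CCND1, as for 18.4% of all probe sets, and for 3 of 9 under estradiol, XBP1, CCND1 and SLC22A5, as for 22.3%. GREB1 differed by -0.07 log2 (-0.21 to 0.08) under vehicle and -0.02 (-0.17 to 0.12) under estradiol, while NCOA1 differed by -2.93 and -2.21 log2 (limma adjusted p = 7.3e-07 and 7.92e-06).

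Among the partners, RB1, the retinoblastoma protein that cyclin D1 kinases phosphorylate, was lower with SRC-1 siRNA by 1.54-fold under vehicle (log2 -0.62 ± 0.073 SE, limma adjusted p = 0.00181) and 1.41-fold under estradiol (-0.50 ± 0.073, limma adjusted p = 0.00623). With the compared arrays alone in the fit the vehicle call was lost (limma adjusted p = 0.0537). CTSL was called lower, by 1.22-fold under vehicle and 1.28-fold under estradiol (limma adjusted p = 0.0324 and 0.0104), and CTSB under estradiol, at -0.25 log2 (limma adjusted p = 0.0423). Of 12 fits that left out 1 array, CTSL kept its call in 2 under vehicle and 12 under estradiol, and CTSB in 1; where it was lost, the limma adjusted p was 0.0507 to 0.12 for CTSL and 0.0539 to 0.131 for CTSB. Those kept were without NT_E replicate 1 or 3 for CTSL under vehicle and without NT_E replicate 1 for CTSB; the CTSL call under estradiol was lost with the covariate (limma adjusted p = 0.101) and with the compared arrays alone (0.0541). The CTSB call was also lost with the covariate (limma adjusted p = 0.118) and with the compared arrays alone (0.163). Quantile normalization and centring on the median ended it as well (limma adjusted p = 0.0518 and 0.0606). With the compared arrays alone CTSL lost its vehicle call too (limma adjusted p = 0.151). In all, limma called 2 of the 20 partners lower under vehicle and 3 under estradiol, and 0 higher. Of all probe sets 0.945% and 1.07% were called lower. RB1, CTSL and CTSB were picked for naming after their values were seen, since the rule for naming covers the estradiol comparisons.

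The difference of the estradiol effects asks whether SRC-1 siRNA alters the hormone response itself. Depletion was not equal in the treatments: NCOA1 had a mean of 5.86 log2 in siSRC-1_V and 6.86 in siSRC-1_E. It was called higher with estradiol under SRC-1 siRNA, and the part of this in the difference was not tested. Limma called 0 of 9 members (1 at an unadjusted p under 0.05), where 0% of all probe sets were called. That member was SLC22A5, whose rise was larger with SRC-1 siRNA by 0.19 log2 (95% interval 0.04 to 0.35, limma adjusted p = 0.646). GREB1 differed by 0.05 log2 (-0.16 to 0.25), CTSD by 0.03 (-0.12 to 0.18) and CCND1 by -0.05 (-0.17 to 0.08). For GREB1 the interval does not reach a loss of the 0.40 log2 rise seen with non-targeting siRNA, if that estimate is taken without its error. The rises of CTSD (0.15 log2) and CCND1 (0.12) with non-targeting siRNA were not called. Their intervals therefore cannot decide whether a response was lost.

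A further 40 genes known to be induced by estrogen in breast cancer cells were examined beside the members, of which 36 were measured. This list was chosen with earlier results of these data known, so its counts beside all probe sets are a description only. With non-targeting siRNA 9 were called higher and 1 lower, and with SRC-1 siRNA 10 and 1. Of all probe sets 1.85% and 4.49% were called higher and 0.873% and 2.39% lower. In both comparisons 10 of these genes were called in the same direction. Over all probe sets that share cannot exceed the 2.73% called with non-targeting siRNA. The median over the 36 was 0.08 and 0.06 log2. KRT19, a keratin, rose from 6.62 ± 0.14 to 8.75 ± 0.11 log2 (SD, n = 3) between NT_V and NT_E, and the carbonic anhydrase gene CA12 from 8.90 ± 0.08 to 10.24 ± 0.07. MYB, a transcription factor, rose from 6.43 ± 0.21 to 7.35 ± 0.15, which is 1.89-fold (limma adjusted p = 0.000419), and 2.16-fold with SRC-1 siRNA. HSPB8, a small heat-shock protein, rose by 0.85 and 0.99 log2 with non-targeting and SRC-1 siRNA, and ABCA3, a lipid transporter, by 0.84 and 0.72. The largest fold among the 9 members was 1.47, a smaller estimate than for these 5 genes. They were named because their p was among the smallest of the list, and this contrast in size was not tested.

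Called genes of a size near GREB1 were NRIP1, a ligand-dependent corepressor of the receptor (0.42 and 0.40 log2 with non-targeting and SRC-1 siRNA), and IGFBP4, which binds insulin-like growth factors (0.39 and 0.32). Both fall outside the naming rule and were chosen after their values were seen, as was MYBL1, a relative of MYB. MYBL1 was called with SRC-1 siRNA, at 0.45 log2, and not with non-targeting siRNA, at 0.22, a difference between the siRNAs that was itself not called. MYC, the growth regulator induced in breast cancer cells, fell by 1.30-fold and 1.39-fold, which is -0.38 and -0.47 log2 (limma adjusted p = 0.00153 and 0.000219). With the covariate NRIP1 lost its calls with both siRNAs, at 0.42 and 0.40 log2. IGFBP4, MYBL1, ABCA3, MYB and MYC lost theirs with SRC-1 siRNA, at 0.37, 0.25, 0.75, 1.02 and -0.50 log2.

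Other well-known targets gave no call with estradiol. The progesterone receptor gene PGR, a clinical marker of receptor activity in breast tumours, differed by -0.10 and -0.13 log2. It lay below the lower quartile on all 12 arrays, as did AGR2, AGR3, ELOVL2, CYP1B1 and NPY1R, 6 of the 36, where a change could have gone unseen, as for CXCL12. Bright probe sets without an estradiol call were FKBP4, a steroid receptor cochaperone (0.10 and 0.09 log2), IGF1R, the receptor of insulin-like growth factor (0.03 and 0.06), and RERG, a small GTPase (0.01 and 0.15).

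For SRC-1 siRNA itself limma called 2 of the 36 lower and 0 higher under vehicle, and 3 lower and 1 higher under estradiol, against the 1.21% and 1.8% of all probe sets. MYBL1 was higher under estradiol by 0.46 log2 (limma adjusted p = 0.00925), and KRT19 lower by 0.43 there (log2 difference -0.43, limma adjusted p = 0.0332). IGFBP4 was lower under vehicle and estradiol, at -0.28 and -0.35 log2 (limma adjusted p = 0.0435 and 0.0116), and IGF1R at -0.22 and -0.19 (limma adjusted p = 0.026 and 0.041). Of 12 fits that left out 1 array, MYBL1 kept its call in 12 and KRT19 in 7, all but those without NT_E replicate 1 or 2 or any siSRC-1_E replicate (limma adjusted p = 0.0519 to 0.123). IGFBP4 kept its calls in 2 (without NT_E replicate 2 or 3) and 9 (all but without NT_E replicate 1 and siSRC-1_E replicates 1 and 3), and IGF1R in 7 (all but without any NT_V replicate and siSRC-1_V replicates 1 and 2) and 2 (without siSRC-1_V replicate 2 or 3). The replicate block ended the IGFBP4 call under vehicle (limma adjusted p = 0.0814) and the IGF1R call under estradiol (0.0596). With the covariate MYBL1, KRT19, IGFBP4 and IGF1R lost their calls under estradiol (limma adjusted p = 0.17, 0.32, 0.157 and 0.184). IGFBP4 also lost its call under vehicle there (0.0534). With the compared arrays alone KRT19 lost its call (limma adjusted p = 0.0774). IGFBP4 lost both of its calls in that fit (0.134 and 0.0715), as did IGF1R (0.173 and 0.129). Quantile normalization ended the IGFBP4 call under vehicle (limma adjusted p = 0.065). Centring on the median ended both IGF1R calls (limma adjusted p = 0.0511 and 0.0949).

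**Figure D3:**
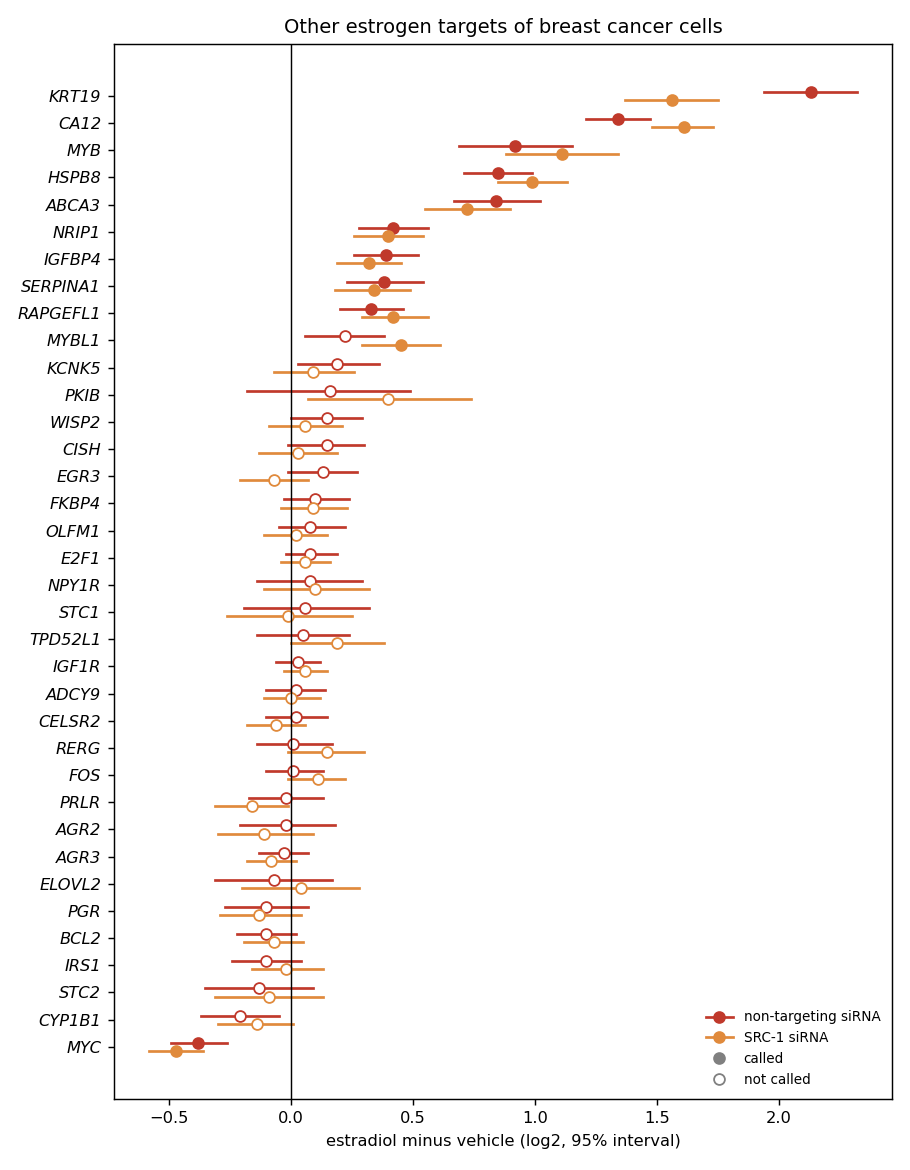
Estradiol minus vehicle as log2 difference (x axis) with 95% intervals for the 36 other estrogen targets, ordered by the value with non-targeting siRNA; filled points were called by limma. KRT19, at 2.13 log2, and CA12, at 1.34, lie farthest to the right, MYC is called to the left at -0.38, and most other genes lie near 0.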

How the data were processed

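Expression was measured on 12 arrays, 3 in each of 4 groups. The authors deposited log2 values per probe set, made from CEL files with affy and tested with limma, per the submitters' processing notes and the series design; versions, background correction and normalization are not given in the sources used here. No further normalization was applied. The 4203 of 33297 probe sets numbered before any annotated one were treated as controls and left out, which is an inference. Of the 29094 tested, 19460 carry 1 symbol. Arrays have no depth; precision is limited by how many there are, with a median standard error of 0.071 log2 between 2 groups.

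One mean per group was fitted with limma 3.58.1 in R 4.3.3 (3.15 prior and 8 residual degrees of freedom), two-sided, and called at the threshold of the design text, p under 0.01 and adjusted p under 0.05. Intervals are 95% and unadjusted. The script was tested on simulated data. Members and lists were chosen with earlier results of these data known. Named are the members, NCOA1, ESR1, from each list up to 6 called genes with the smallest p and up to 3 uncalled with the highest mean per estradiol comparison, and the 2 genes nearest to each called member by root mean square difference; NRIP1, IGFBP4, MYBL1, PGR, the marker genes and all partners but CDK4, CCND2, HSPA5 and CXCR7 fall outside this rule and were chosen after their values were seen, as were the other targets below the quartile. Same-numbered replicates, centred on their group means, correlated at -0.035 to 0.209 (6 of 18 above 0.1). Differently numbered replicates were not compared, so these values do not settle whether numbers are pairs. The main fit did not take numbers as pairs. A replicate block lowered the SE for some genes, as for TFF1 from 0.122 to 0.058 log2 with non-targeting siRNA. It raised the SE for others, as for GREB1 from 0.066 to 0.07. Alternatives were a replicate block, leaving out the lowest 40% of probe sets, centring on the median, quantile normalization, a trended and robust variance, the compared arrays only, each array left out, the control mean as covariate and a fold change of at least 1.5. Motifs were counted in RefSeq start regions with Python 3.11.15.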

Additional observations from a re-analysis of the deposited data

How the results depend on the processing

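Over 881 alternative values of the 9 members, 0 were called in the opposite direction and 46 that were called in neither setting changed sign. GREB1 and SLC22A5 were called with both siRNAs in all 12 fits that left out 1 array, which gave 2 members called with non-targeting siRNA and 2 to 3 with SRC-1 siRNA. Other alternatives moved the number of members called with non-targeting siRNA from 2 to 4 (trended and robust variance), 1 (covariate) and 0 (1.5-fold), and with SRC-1 siRNA from 3 to 2 (compared arrays only, and replicate block, CTSD being lost) and 0 (covariate, and 1.5-fold). Under estradiol the SRC-1 siRNA effect went from 0 members to 1, CCND1, with a trended and robust variance. The replicate block changed 1 member call, that of CTSD with SRC-1 siRNA (adjusted p = 0.051), and of the other genes named it ended SRC-1 siRNA calls of CTSB and IGF1R under estradiol (adjusted p = 0.0622 and 0.0596) and of IGFBP4 and ALPL under vehicle (0.0814 and 0.0541); with it GREB1 and SLC22A5 had adjusted p of 0.0176 and 0.00638 with non-targeting siRNA. The other choice of probe set was not run, as each member had 1.

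Over all probe sets, calls for estradiol with non-targeting siRNA moved from 793 to 366 with the covariate and 165 at 1.5-fold, and those with SRC-1 siRNA from 2001 to 958 with the compared arrays only, 106 with the covariate and 302 at 1.5-fold. For SRC-1 siRNA under vehicle they went from 352 to 728 without the lowest 40%, 857 with a trended and robust variance, 90 with the compared arrays only and 41 at 1.5-fold. Under estradiol they went from 524 to 1117, 1246, 174 and 63 in the same order, and 121 with the covariate. The difference went from 0 to 2 with a trended and robust variance. Leaving out 1 array gave 531 to 783, 1042 to 2956, 169 to 338 and 216 to 547 calls in these 4 comparisons, and 0 for the difference. Fewer probe sets or arrays enter some of these fits; otherwise the cause was not tested. Signal over background was not measured, which limits CXCL12 most; CXCL12 and TFF3 were among the lowest 40%.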
